A study of Mus musculus with 6 samples.

Results

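Transcripts of 10 Ets factors, Etv1, Etv4, Etv5, Ets1, Ets2, Ehf, Elf3, Elf5, Spdef and Erg, were examined in 2 populations of neonatal mouse prostate cells. The genes were chosen by name as Ets factors of epithelium and of the FGF response. Every probe whose gene name in the array design equals one of these symbols was taken, which gave 15 of the 55681 probes and 10 of the 36163 gene names on the array. Prostate cells of untreated 6-day-old male FVB/N Tg 11.5kb-GFP mice were depleted of lineage-positive cells with antibodies to Ter119, CD31 and CD45, gated on Sca-1 and CD49f, and sorted on GFP. The resulting Lin- Sca-1+ CD49f+ fraction, called LSC, holds the basal and stem cells of the gland. LSC GFP+ cells were compared with LSC GFP- cells on 3 arrays per population, each from an independent sample. Both populations carry the transgene, in which the promoter of s-SHIP drives GFP, so they differ in sorted GFP signal and not in genotype. In this line GFP also marks vascular smooth muscle cells, which carry little Sca-1 or CD49f. How many animals went into a sample is not given in the sources used here.

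Ets factors share a DNA-binding ETS domain that recognizes sites around a GGAA core. The PEA3 members Etv1, Etv4 and Etv5 are induced by FGF signaling through ERK in many epithelia and act in branching and in spermatogonial stem cells, and Ets1 and Ets2 are themselves phosphorylated and activated by ERK. Elf3, Elf5 and Ehf are largely restricted to epithelia, Elf5 specifies secretory cells in the mammary gland, Spdef is a prostate-derived Ets factor of secretory cells, and Erg is the Ets factor most often rearranged in human prostate cancer and is otherwise best known in endothelium.

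Values below are log2 signals relative to the 75th percentile of the array, so 0 is the 75th percentile. Levels of different probes cannot be compared with each other. The scanner software marks spots well above background, and a probe was tested when it had this mark on the 3 arrays of either population. The test was limma's moderated test, two-sided, and a probe was called higher or lower at an unadjusted p under 0.05. Between 36651 and 42123 probes per array were well above background, no spot was saturated, and no spot of the 15 probes was marked as an outlier. All 6 arrays lay on 1 slide and were read in 1 scan. The number of arrays limits the precision, and an exact permutation test of 3 arrays against 3 cannot give a p below 0.1.

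RefSeq promoter sequence of the assembly GRCm38.p6 was at hand for 7 of the 10 genes, not for Etv4, Ehf and Ets1. The 250 bases before each start were searched for the ETS core GGAA on both strands, for AGGAAG, the core as PEA3 factors prefer it, and for CCGGAAGT, a high-affinity form. The longer motifs contain the core, so their matches overlap it. The core was found in 10 of the 12 windows of the 7 genes and in 93.4% of the windows of all 32851 promoters. AGGAAG was found in 3 of the 12, one each of Etv1, Erg and Spdef, and in 29.5% of all promoters, and CCGGAAGT in 0 of the 12 and in 2.88% of all. A match is a description of letters and not a binding site. The windows of Ets2 and Elf5, which were called in opposite directions, and of Spdef, which holds AGGAAG, read as follows, 5′ to 3′ on the strand of the gene, with GGAA and its reverse complement TTCC in capitals.
Ets2 promoter, chr16:95702157-95702406, plus strand: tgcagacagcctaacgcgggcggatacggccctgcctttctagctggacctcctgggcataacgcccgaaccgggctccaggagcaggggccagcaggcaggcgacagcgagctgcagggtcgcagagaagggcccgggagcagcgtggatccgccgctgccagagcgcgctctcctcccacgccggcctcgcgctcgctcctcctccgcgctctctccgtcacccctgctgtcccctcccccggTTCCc
Elf5 promoter, start site 1, chr2:103411848-103412097, plus strand: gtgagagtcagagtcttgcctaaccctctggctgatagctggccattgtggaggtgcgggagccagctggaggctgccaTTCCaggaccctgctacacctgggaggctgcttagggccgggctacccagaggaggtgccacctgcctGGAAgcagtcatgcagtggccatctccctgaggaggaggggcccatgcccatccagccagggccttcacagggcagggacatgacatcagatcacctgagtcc
Elf5 promoter, start site 2, chr2:103423818-103424067, plus strand: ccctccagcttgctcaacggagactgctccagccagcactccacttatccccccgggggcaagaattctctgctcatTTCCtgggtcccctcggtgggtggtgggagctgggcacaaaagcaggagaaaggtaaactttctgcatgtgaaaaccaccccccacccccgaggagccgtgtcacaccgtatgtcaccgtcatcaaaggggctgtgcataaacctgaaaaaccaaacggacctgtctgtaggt
Spdef promoter, chr17:27728952-27729201, minus strand: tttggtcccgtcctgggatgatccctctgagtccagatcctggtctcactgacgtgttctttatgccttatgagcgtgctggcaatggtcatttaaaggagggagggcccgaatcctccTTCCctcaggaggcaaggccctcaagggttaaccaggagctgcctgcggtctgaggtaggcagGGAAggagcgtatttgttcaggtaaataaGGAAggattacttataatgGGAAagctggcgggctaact

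Probe sequences decide which transcripts are read. The following 60-base probes, printed as the array design gives them, lie in coding sequence. That of Ets1 lies in the stretch coding for the ETS domain, the part most alike between family members, and binding of other Ets transcripts to it was not tested. That of Ehf is the brighter of the gene's 2 probes.
Ets1 probe A_52_P232830: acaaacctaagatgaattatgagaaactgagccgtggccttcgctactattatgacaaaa
Ehf probe A_55_P2070809: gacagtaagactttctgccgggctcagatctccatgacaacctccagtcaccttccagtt

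Of the 15 probes, 13 passed the filter on low signal, and both Erg probes did not. At an unadjusted p under 0.05 limma called 5 of the 13 higher in LSC GFP+ cells, 2 each of Etv4 and Ets1 and that of Ets2, against 3.38% of all 37005 probes tested. It called 1 lower, that of Elf5, against 4.53% of all, and in either direction 6 against 7.90%. The probes of Etv1, Etv5, Ehf, Elf3 and Spdef were not called. The median difference over the 13 probes, LSC GFP+ minus LSC GFP-, was 0.25 on the log2 scale, and over all probes tested -0.0044. For 6 of the 13 probes the 3 LSC GFP+ values lay entirely above the 3 LSC GFP- values, as they did for 6.61% of all probes, and for 0 of the 13 entirely below them, against 5.65% (12.3% for both kinds together). After Benjamini-Hochberg adjustment over all 37005 probes limma called 0 of the 13, with a lowest adjusted p of 0.336, and 1 probe in all (0.00270%). The methods' t-test also called 0 after adjustment, and without it 5 higher (4.27% of all probes) and 0 lower, with Spdef in place of the Ets1 probe A_52_P194250. Over all probes 57.3% of the calls were lower, and 46.9% under scaling by the array median. With the replicate number as a block, 2495 probes (6.74%) were called higher and 2985 (8.07%) lower, in place of 1250 and 1675, and of the 13 probes 6 and 1.

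**Figure D1:**
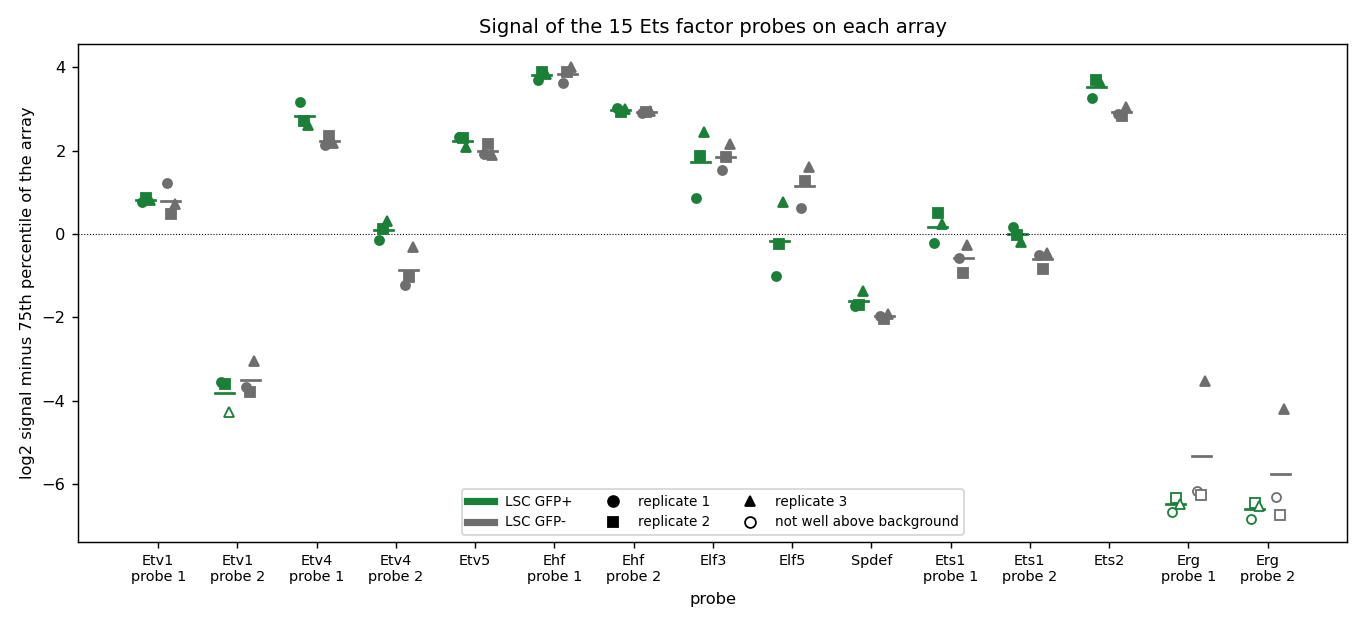
Log2 signal minus the array's 75th percentile (y axis) of the 15 probes (x axis) on each of the 6 arrays, in green for LSC GFP+ and grey for LSC GFP-, with the symbol giving the replicate number, open symbols for spots not well above background and short lines for the mean of 3 arrays. LSC GFP+ lies entirely above LSC GFP- for both probes of Etv4, both of Ets1, Ets2 and Spdef, Elf5 lies lower in LSC GFP+ cells with 1 array overlapping, and Erg, near background on 5 arrays, stands out on LSC GFP- replicate 3.

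**Figure D2:**
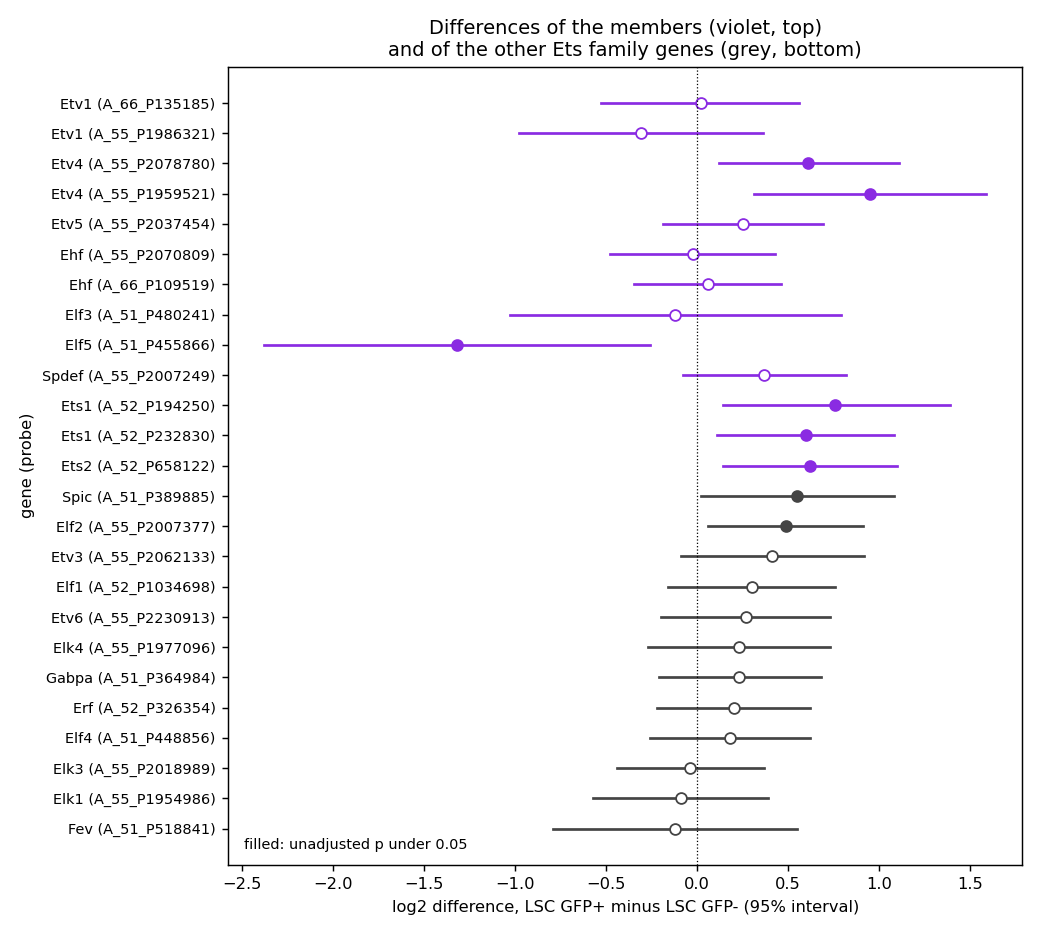
Log2 difference of LSC GFP+ minus LSC GFP- (x axis) with its 95% interval from limma for the 13 tested probes of the 10 genes (violet) and, at the brightest tested probe, for 12 other Ets genes (grey), filled where the unadjusted p is under 0.05. Intervals that leave out 0 are on the right for Etv4, Ets1, Ets2, Spic and Elf2 and on the left for Elf5.

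Markers of cell types moved between the populations as well, and their part in the results on the Ets factors was not tested. In sorted bulk samples, fewer cells of a type and less RNA per cell cannot be told apart. Counted at the brightest tested probe of each gene, 3.39% of 25545 genes were higher and 4.29% lower. Of 11 tested basal markers 6 were higher and 0 lower, with a median difference of 0.52, and the summed linear signal of the list, in units of the array's 75th percentile, was 236 to 254 in LSC GFP+ and 177 to 188 in LSC GFP- cells. The basal keratins Krt14 and Krt5 differed by 1.18 and 0.70. All 6 smooth muscle markers were lower, by a median of -1.73, with sums of 6.21 to 10 and 19.6 to 37.7. Of 10 stromal markers 5 were lower, the collagens Col1a1, Col1a2 and Col3a1, Pdgfra and Lum, and Dcn was higher, with sums of 26.5 to 32 and 30.3 to 71.7, while Vim differed by -0.80 (limma adjusted p = 0.822). Pdgfra passed the filter through LSC GFP- alone, the population where it is high, so its call is not independent of the filter. None of the 8 tested leukocyte markers was called by limma at the unadjusted threshold, with sums of 41.3 to 44.8 and 39.9 to 47.9, and Ptprc, which encodes the depleted CD45, lay between -1.54 and -1.39 on all 6 arrays. With the replicate number as a block 1 of them, Cd52, was called, with a difference of -1.14 and an unadjusted p of 0.00579 (adjusted p = 0.146), and it was lower in LSC GFP+ cells in 3 of 3 pairs. The largest part of the leukocyte sums was a bright Csf1r probe, with means of 4.69 in LSC GFP+ and 4.62 in LSC GFP- cells. The other Csf1r probes had means of -1.69 and -3.80 in LSC GFP+ cells, so the sums say little about the dimmer markers. Krt5 and Krt14 were well above background on all 6 arrays, as the label of a basal fraction has it, and so were the luminal keratins Krt8 and Krt18.

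Among the PEA3 factors, Etv4 was higher in LSC GFP+ cells at both probes, while Etv5 and Etv1 did not pass the test. The first Etv4 probe, A_55_P2078780 at chr11:101631057-101631116 of mm9, read 3.16, 2.72 and 2.63 in LSC GFP+ cells and 2.14, 2.35 and 2.19 in LSC GFP- cells, here and below in the order of replicates 1, 2 and 3. All LSC GFP+ arrays lay above all LSC GFP- arrays. The means were 2.84 ± 0.28 and 2.23 ± 0.11 (SD, n = 3), and the difference of 0.61 (SE 0.21, 95% interval 0.12 to 1.11), or 1.53-fold, had an unadjusted p of 0.021 in limma and an adjusted p of 0.462. The second probe, A_55_P1959521, which starts 265 bases from the first at chr11:101631322-101631381, read -0.14, 0.12 and 0.32 on the LSC GFP+ arrays and -1.22, -1.02 and -0.32 on the LSC GFP- arrays. Here too the groups did not overlap, with LSC GFP- replicate 3 closest to the other population. The difference of 0.95 (SE 0.28, 95% interval 0.31 to 1.59), or 1.93-fold, had an unadjusted p of 0.00926 and an adjusted p of 0.336. The probes share the direction and do not overlap in sequence, but both read the same RNA samples. The second probe kept its call in all 17 alternatives, at 0.73 to 1.22. The first lost it without LSC GFP+ replicate 1, at 0.45, without LSC GFP- replicate 1, at 0.57, and without LSC GFP- replicate 3, at 0.59.

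Etv5, at chr16:22381387-22381446, read 2.32, 2.31 and 2.10 in LSC GFP+ and 1.93, 2.15 and 1.89 in LSC GFP- cells. The groups overlapped by LSC GFP- replicate 2 alone, and each LSC GFP+ array was above the LSC GFP- array of the same number, by 0.39, 0.16 and 0.21. The difference of 0.25 had a 95% interval of -0.19 to 0.69 (limma adjusted p = 0.93), which includes the 0.61 measured at the first Etv4 probe. Etv1, which has probes 1568 bases apart on chromosome 12, gave 0.78, 0.86 and 0.82 in LSC GFP+ and 1.22, 0.47 and 0.71 in LSC GFP- cells at A_66_P135185, where the LSC GFP- arrays spread around the tight LSC GFP+ arrays. The difference was 0.02 (95% interval -0.53 to 0.56, adjusted p = 0.996) and turned negative without LSC GFP- replicate 2, at -0.15, or replicate 3, at -0.027. The dim second probe, A_55_P1986321, read -3.55, -3.61 and -4.27 against -3.68, -3.78 and -3.04 and passed background on 2 of the 3 LSC GFP+ arrays, with a difference of -0.31 (95% interval -0.98 to 0.36, adjusted p = 0.987). Whether Etv4 differs from Etv5 or Etv1 in its response to the contrast was not tested.

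Ets1 and Ets2 were both higher in LSC GFP+ cells, without overlap between the groups at any of their 3 probes. Ets2, at chr16:95942227-95942286, read 3.26, 3.71 and 3.65 in LSC GFP+ and 2.88, 2.83 and 3.06 in LSC GFP- cells. The lowest LSC GFP+ array, replicate 1, stood above the highest LSC GFP- array, replicate 3. The means were 3.54 ± 0.24 and 2.92 ± 0.12 (SD, n = 3), and the difference of 0.62 (SE 0.21, 95% interval 0.14 to 1.1), or 1.54-fold, had an unadjusted p of 0.0172 and an adjusted p of 0.426 in limma. Ets1 read 0.18, -0.02 and -0.19 in LSC GFP+ and -0.51, -0.85 and -0.45 in LSC GFP- cells at A_52_P232830, the probe in the ETS domain, at chr9:32561826-32561885. At A_52_P194250, which starts 3034 bases away at chr9:32564860-32564919, it read -0.22, 0.51 and 0.23 in LSC GFP+ and -0.57, -0.93 and -0.26 in LSC GFP- cells. At this second probe LSC GFP+ replicate 1 and LSC GFP- replicate 3 nearly met. The differences were 0.60 (SE 0.21, 95% interval 0.11 to 1.08) and 0.76 (SE 0.27, 95% interval 0.14 to 1.39), or 1.51-fold and 1.70-fold, with unadjusted p of 0.0224 and 0.0221 and adjusted p of 0.471 and 0.469. The calls of both genes depended on single arrays, while their differences stayed positive in every alternative. A fit without an array also has less precision, so a lost call need not mean a smaller difference. Ets2 lost its call without LSC GFP- replicate 1 (0.60), without LSC GFP+ replicate 3 (0.57) and without replicate 2 of LSC GFP+ (0.54) or of LSC GFP- (0.57). The ETS domain probe of Ets1 lost it without LSC GFP+ replicate 1 (0.50) and without replicate 2 of LSC GFP+ (0.60) or of LSC GFP- (0.47). The other Ets1 probe lost it without LSC GFP- replicate 1 (0.77), without LSC GFP+ replicate 3 (0.74), without replicate 2 of either population (0.59 for each) and in the methods' t-test.

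Erg was near background, with signal on a single array. At A_55_P2113832, chr16:95581811-95581870, the LSC GFP+ arrays read -6.67, -6.33 and -6.47 and the LSC GFP- arrays -6.18, -6.27 and -3.52. At A_55_P2015862, which starts 143 bases away, they read -6.84, -6.45 and -6.53 and -6.31, -6.75 and -4.21. At the first probe the LSC GFP- arrays lay above the LSC GFP+ arrays, by little except on replicate 3, and at the second the groups overlapped. LSC GFP- replicate 3 was the array on which both probes were well above background, and neither was tested. Fli1, the other Ets factor best known in endothelium and blood, was well above background on that array alone as well, at -4.43, with -6.97 to -6.59 on the LSC GFP+ arrays. So were the endothelial genes Cdh5, the cadherin of endothelial junctions, at -2.24, and Tie1, an endothelial receptor, at -2.47, and the second probe of Kdr, the VEGF receptor, at -2.51. On the other 5 arrays these lay between -6.51 and -6.02 for Cdh5, between -6.43 and -4.22 for Tie1 and between -6.31 and -4.01 for Kdr. Cldn5 (-1.75), Egfl7 (0.46), Esam (-1.11), Emcn (-3.18) and Robo4 (-2.48) were also highest on LSC GFP- replicate 3, but passed background on other arrays too. Some other endothelial readings did not share this. The brighter Kdr probe read 2.44 to 2.64 on all 6 arrays, Vwf was highest on LSC GFP- replicate 2 (-2.17, against -2.45 on replicate 3), Tek was highest on LSC GFP+ replicate 3 (-2.98, against -3.12 on LSC GFP- replicate 3), and Sox17 passed background on no array. Pecam1, which encodes the depleted CD31, read -1.07 on LSC GFP- replicate 3 and between -3.61 and -2.86 on the others. Over 12 endothelial markers the summed signal was 6.89 to 7.58 in LSC GFP+ and 7.05 to 9.34 in LSC GFP- cells, 7 were tested, and 1, Vwf, was called, lower by -0.82 in LSC GFP+ cells. Most of each sum came from the brighter Kdr probe, so the sums say little about the dimmer markers. Cdh5, Tie1, Emcn, Robo4 and Sox17 were not well above background on all 3 arrays of either population. Their part in the Erg signal was not tested.

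**Figure D3:**
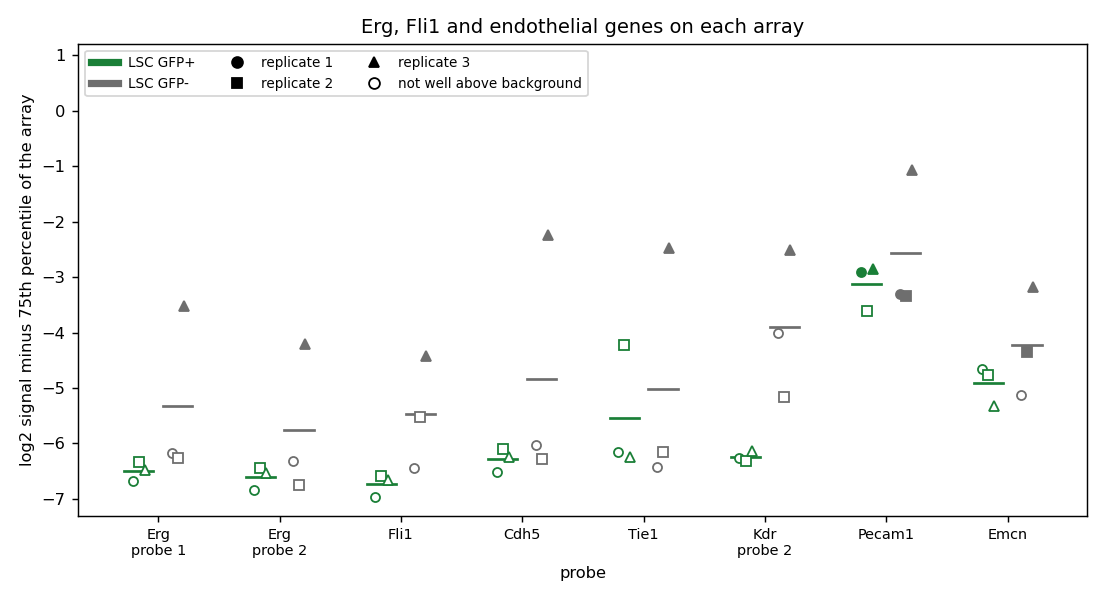
Log2 signal minus the array's 75th percentile (y axis) of Erg, Fli1 and endothelial genes (x axis, 1 probe each where not numbered) on each array, in green for LSC GFP+ and grey for LSC GFP-, with the replicate number as symbol, open symbols for spots not well above background and lines for means of 3 arrays. LSC GFP- replicate 3, the grey triangle, is the highest array at every probe shown, from -4.43 at Fli1 to -1.07 at Pecam1. Of the endothelial genes not shown, Cldn5, Egfl7, Esam and Robo4 were also highest there. Vwf, Tek, Sox17 and the brighter Kdr probe, also not shown, were not.

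Elf5 was the one epithelial Ets factor that passed the test, and it was lower in LSC GFP+ cells. At chr2:103290958-103291017 it read -1.01, -0.25 and 0.78 in LSC GFP+ cells and 0.62, 1.27 and 1.6 in LSC GFP- cells. The groups overlapped, since LSC GFP+ replicate 3 exceeded LSC GFP- replicate 1, but within each replicate number the LSC GFP+ array was the lower, by -1.63, -1.52 and -0.81. The means were -0.16 ± 0.90 and 1.16 ± 0.50 (SD, n = 3), and the SD of the LSC GFP+ arrays was the largest among the 15 probes in that population. The difference of -1.32 (SE 0.46, 95% interval -2.38 to -0.26), or 2.50-fold, had an unadjusted p of 0.0206 and an adjusted p of 0.457 in limma. The call was lost in the methods' t-test and without LSC GFP+ replicate 1 (-0.90) or LSC GFP- replicate 3 (-1.11). It was also lost without replicate 2 of LSC GFP+ (-1.28) or of LSC GFP- (-1.27). The other 12 of 17 alternatives kept the call. Among them, limma fitted to equal replicate numbers as pairs gave Elf5 an unadjusted p of 0.00138 (adjusted p = 0.0893). Whether equal numbers are true pairs is not settled, as given below.

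Elf3 and Ehf, the other epithelial factors of the Elf type, were not called. Elf3, at chr1:137150328-137150387, read 0.86, 1.88 and 2.44 in LSC GFP+ and 1.54, 1.86 and 2.15 in LSC GFP- cells. The LSC GFP+ arrays spanned the whole range of the LSC GFP- arrays. The difference of -0.12 (95% interval -1.03 to 0.79, limma adjusted p = 0.996) turned positive without LSC GFP+ replicate 1, at 0.31, or LSC GFP- replicate 3, at 0.028. Ehf, at chr2:103114043-103114102, read 3.71, 3.90 and 3.85 in LSC GFP+ and 3.62, 3.89 and 4.02 in LSC GFP- cells, and its second probe, 7216 bases away, 3.03, 2.93 and 3.00 against 2.90, 2.93 and 2.96. The populations lay on top of each other at both probes. The differences were -0.025 (95% interval -0.48 to 0.43) and 0.057 (95% interval -0.35 to 0.46), and their signs flipped under scaling by the array median (0.044 at the first probe), normexp correction (0.0045 at the first) and quantile normalization (-0.00022 at the second).

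Spdef, at chr17:27851401-27851460, read -1.73, -1.70 and -1.37 in LSC GFP+ and -1.97, -2.03 and -1.91 in LSC GFP- cells. The groups did not overlap. The difference of 0.37 (SE 0.19, 95% interval -0.08 to 0.82) missed the threshold in limma with an unadjusted p of 0.0932 (adjusted p = 0.761). It passed with the replicate number as a block, with an unadjusted p of 0.0457 (adjusted p = 0.325), and in the methods' t-test.

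In both populations the replicate 3 array held the highest value of Elf5, Elf3 and the luminal markers Krt8, Krt18 and Prom1, and likewise of the basal keratins Krt5, Krt14 and Krt15 and of Epcam, so this was not particular to luminal genes. Krt8 read 3.83, 4.06 and 4.56 in LSC GFP+ and 4.17, 4.34 and 4.83 in LSC GFP- cells, a difference of -0.30 (limma adjusted p = 0.983), and Krt18 differed by -0.22 (adjusted p = 0.996). Prom1, counted here as a luminal marker, encodes CD133, which the paper lists among surface markers used to isolate prostate stem cells. It differed by -0.53 at its brightest probe, with an unadjusted p of 0.0403 in limma (adjusted p = 0.59). At its other probe it differed by -0.63, with an unadjusted p of 0.029 (adjusted p = 0.514). Among the other luminal markers reported, Hoxb13 was higher and Cldn3 lower, and the summed signals of the luminal list were 221 to 312 in LSC GFP+ and 232 to 324 in LSC GFP- cells. Their part in the Elf5 difference was not tested.

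**Figure D4:**
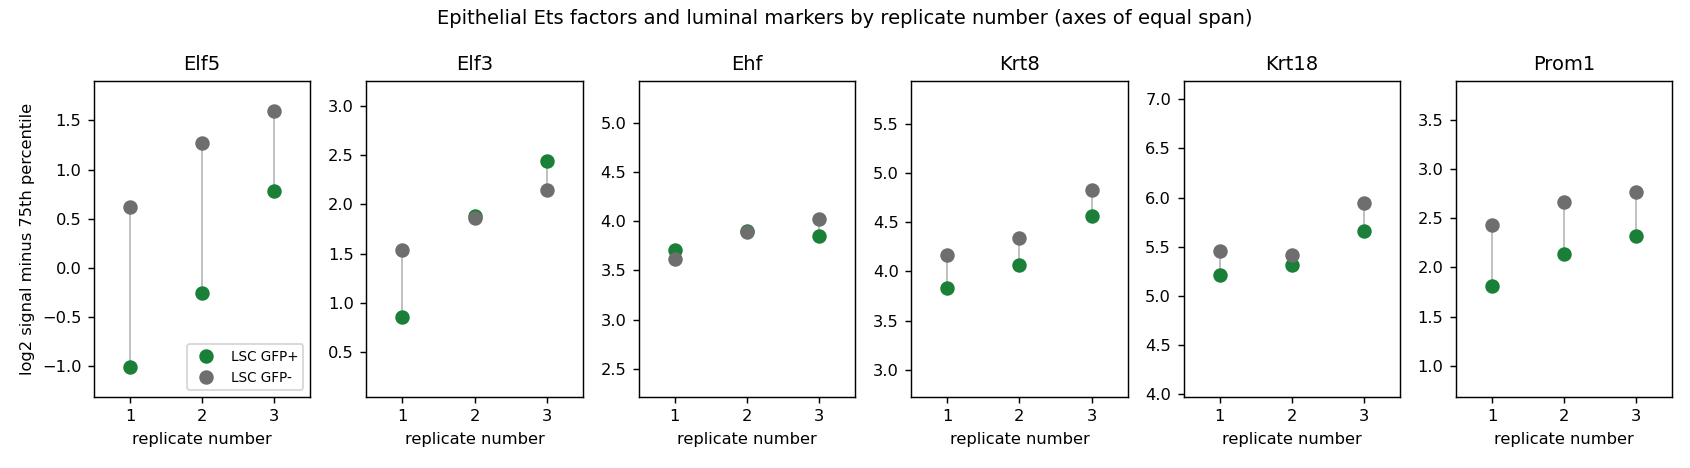
Log2 signal minus the array's 75th percentile (y axes of equal span) by replicate number (x axis) for Elf5, Elf3, Ehf, Krt8, Krt18 and Prom1 at the brightest tested probe, green for LSC GFP+ and grey for LSC GFP-, joined within a replicate number. Elf5 lies lower in LSC GFP+ cells at each number, by -1.63, -1.52 and -0.81, and Elf3 goes from -0.68 at replicate 1 to 0.29 at replicate 3.

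Among the other genes of the Ets family Elf2 and Spic were called. Of 17 other Ets genes 15 were named on the array and 12 were tested at their brightest probe. At the unadjusted threshold 2 of the 12 were higher, against 3.39% of all genes, 0 were lower, against 4.29%, and the median difference was 0.23 (over all genes -0.0068). Elf2, a broadly expressed member, read 1.44, 1.48 and 1.65 in LSC GFP+ and 1.13, 0.99 and 1.0 in LSC GFP- cells, without overlap, with a difference of 0.49 (95% interval 0.06 to 0.91) and an unadjusted p of 0.0291 (adjusted p = 0.514). Spic, a factor of red pulp macrophages, differed by 0.55, but passed the filter through LSC GFP+ alone, the population where it is high, so its call is not independent of the filter. With signal above background required on all arrays, 1 gene was called, Elf2. Elf2 lost its call without any array but LSC GFP+ replicate 1, at 0.42 to 0.53. Spic lost it without any array but LSC GFP- replicate 3, at 0.36 to 0.59, under normexp correction, at 0.15, under both looser filters, in the methods' t-test and with an intensity trend, 10 of 16 alternatives in all.

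Several Ets genes lie side by side in the mouse genome, with no other protein-coding gene between them in GRCm38.p6. Within these pairs the measurements differed. Ets2 and Erg are neighbors on chromosome 16, and Ets2 was higher in LSC GFP+ cells while Erg was near background. Ets1 and Fli1 are neighbors on chromosome 9, and Ets1 was higher while Fli1 was near background. Ehf and Elf5 are neighbors on chromosome 2, and Elf5 was lower while Ehf differed by -0.025 at its brighter probe. The difference between the genes of a pair was not tested.

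Genes of the FGF pathway were read from lists of ligands, of receptors and adaptors, and of feedback and response genes of ERK. Of 18 ligands 11 were tested, 1 was higher and 2 were lower (3.39% and 4.29% of all genes), with a median of 0.13. Fgf10, the mesenchymal ligand that drives prostate bud outgrowth, read -2.20, -3.10 and -2.59 in LSC GFP- cells and was not well above background on any LSC GFP+ array. In the main processing this makes it at least 3.45-fold lower there, the bound being set by the dimmest signal marked well above background on each array (limma adjusted p = 0.0654). Under normexp correction the difference of Fgf10 was -0.81, smaller than that bound. It passed the filter through LSC GFP- alone, the population where it is high, so its call is not independent of the filter. Fgf9 read -1.48, -1.65 and -1.48 in LSC GFP+ and -0.23, -0.01 and -0.17 in LSC GFP- cells, lower by -1.40 (adjusted p = 0.0782). Fgf21, an endocrine ligand, was dim and differed by 0.91, but passed the filter through LSC GFP+ alone, where it is high, so its call is not independent of the filter either. It lost the call in 6 of 16 alternatives, under normexp correction (0.24), in the methods' t-test, with an intensity trend, without replicate 1 of LSC GFP+ (0.75) or of LSC GFP- (0.59) and without LSC GFP+ replicate 3 (0.87). With signal above background required on all arrays, 1 ligand was called, Fgf9. Fgf7, another mesenchymal ligand, was well above background on LSC GFP- replicate 3 alone and was not tested. Stromal and smooth muscle markers were lower in LSC GFP+ cells as given above, and their part in the values of Fgf10 was not tested.

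Neither main FGF receptor of epithelium and stroma, Fgfr2 or Fgfr1, was called at its brightest probe. Of 17 genes for receptors and adaptors 15 were tested, 1 was higher (3.39% of all genes), 0 were lower, and the median was 0.07. The gene called was Fgfbp1, which encodes a secreted carrier that releases FGF from the matrix, at 1.38, 2.03 and 2.04 in LSC GFP+ and 0.73, 0.93 and 1.14 in LSC GFP- cells, without overlap. The difference of 0.88 had an unadjusted p of 0.00766 (limma adjusted p = 0.311), and the call was kept in all 17 alternatives. Fgfr2, the epithelial receptor for Fgf7 and Fgf10, differed by -0.18 at both probes (95% interval -0.64 to 0.28 at each). The probes of Fgfr1 disagreed, since the brightest differed by -0.15 and the other 2 by 0.88 and 0.94, with unadjusted p of 0.623, 0.0113 and 0.0152 (adjusted p of 0.996, 0.354 and 0.408). With the replicate number as a block 3 receptor and adaptor genes were called, Fgfbp1 and Grb2 higher and Fgfr4 lower. Fgfr4 differed by -0.39 at its brightest probe and by -0.94 at its other probe. At the latter limma without the block gave an unadjusted p of 0.00391 (adjusted p = 0.237). Grb2 differed by 0.41 at its brightest probe and by -0.079 at its other probe.

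Feedback and response genes of ERK were called in 1 direction, higher in LSC GFP+ cells. Of 24 such genes 21 were tested, 9 were higher and 0 lower, against 3.39% and 4.29% of all genes. The list was chosen with earlier results of these data known, so its counts support nothing on their own. Myc, among the genes called, had been reported as higher in LSC GFP+ cells by the paper on these arrays, which names it as a Wnt target. Of the 21 differences 20 were positive, with a median of 0.52, and over all genes 12511 of 25545 were positive, with a median of -0.0068. Dusp4, Dusp5 and Fosl1 passed the filter through LSC GFP+ alone, where they are higher, so their positive signs are not independent of the filter. With signal above background required on all arrays 9 genes were called, with Fos in place of Fosl1. With the replicate number as a block 14 were called, while the calls over all probes went up to 2495 higher and 2985 lower. Dusp6, the phosphatase that dampens ERK and is induced by it, read 3.57, 3.61 and 3.39 in LSC GFP+ and 2.55, 2.37 and 2.62 in LSC GFP- cells. The groups were well apart. The difference of 1.01 (95% interval 0.58 to 1.45), or 2.02-fold, had an unadjusted p of 0.000684 and an adjusted p of 0.129 in limma. Ier3, an immediate-early gene, differed by 1.16, Egr2 by 1.0, Myc by 0.92 and Ccnd1, which encodes cyclin D1, by 0.78, and these and Dusp6 kept their calls in all 17 alternatives. Egr1 (0.66), Fosl1 (0.66, dim), Phlda1 (0.62) and Spry2 (0.52), an inhibitor of receptor signaling, passed the threshold and lost it in some alternatives. Of single arrays, the call of Egr1 depended on LSC GFP- replicates 2 and 3 (0.49 and 0.66 without them) and LSC GFP+ replicate 3 (0.55). That of Phlda1 depended on LSC GFP- replicate 2 (0.54). Fosl1 passed the filter through LSC GFP+ alone, where it is high, and under normexp correction it gave 0.16. Its call depended on replicates 1 and 3 of both populations, with 0.52 to 0.63 without one of them. The call of Spry2 depended on every array but LSC GFP+ replicate 1, with differences of 0.36 to 0.61 without one of them. Spry1 read -0.12, 0.07 and 0.00 in LSC GFP+ and -0.54, -0.52 and -0.25 in LSC GFP- cells, without overlap, and its difference of 0.42 missed the threshold with an unadjusted p of 0.0575 (adjusted p = 0.655) and passed it with the block, at 0.031 (adjusted p = 0.282). Spry4 was well above background on LSC GFP- replicate 3 alone and was not tested. The PEA3 factors Etv4, Etv5 and Etv1 were left out of this list, and their differences of 0.61, 0.25 and 0.02 at the brightest probe stand beside its median of 0.52. Of these factors Etv4 alone was called.

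**Figure D5:**
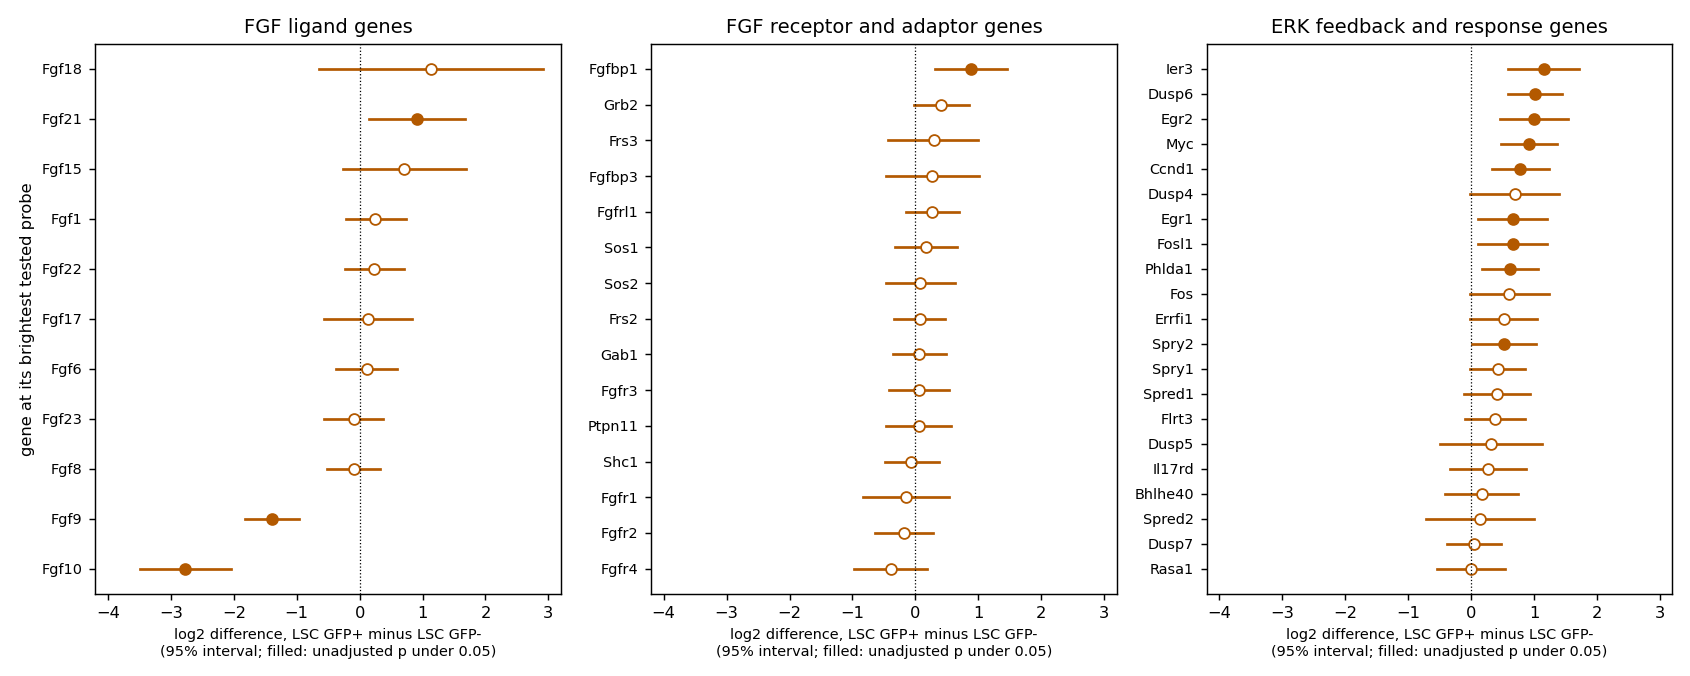
Log2 difference of LSC GFP+ minus LSC GFP- (x axis) with its 95% interval from limma for each tested gene of 3 lists at its brightest probe (y axis), filled where the unadjusted p is under 0.05. In the list of ERK feedback and response genes 20 of 21 points lie above 0, among them Dusp4, Dusp5 and Fosl1, which passed the filter through LSC GFP+ alone. Among the receptors Fgfbp1 alone is filled, and Fgf10, whose point is the measured difference, was not well above background in LSC GFP+ cells and has only a bound.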

How the data were processed

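RNA of 3 LSC GFP+ and 3 LSC GFP- samples was amplified with Ovation Pico WTA, labeled with Cy3 and hybridized to SurePrint G3 Mouse arrays. The deposited values are spot intensities on the linear scale. Per the file headers, Feature Extraction 11.0.1.1 subtracted the background, removed a spatial trend and did not normalize between arrays, while the submitters' processing notes name Agilent Feature Extraction 10.7.3.1. The deposited table of the whole series holds the same intensities, rounded, within 0.6% of the scanner values. The coordinates of probes were copied from the array design, which uses mm9.

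Here log2 intensities minus the array's 75th percentile were averaged over the spots of a probe without those marked as outliers (123 to 154 spots per array). Probes that passed background throughout either population were fitted in R 4.3.3 with limma 3.58.1 (lmFit, then eBayes), and the code was tested on simulated data. A gene outside the 10 was represented by its brightest tested probe. Naming probes through their RefSeq accession gave the same member probes. The members and lists were chosen with earlier results of these data known, and support nothing on their own. The genes named are all members, the called genes of the Ets, FGF and ERK lists, and Fli1, Fgf7, Fgf10, Fgfr1, Fgfr2, Dusp6, Spry1, Spry2, Spry4, Krt5, Krt14, Krt8, Krt18, Pecam1, Cdh5, Kdr, Ptprc and Vim. Other genes named were chosen after their values were seen. A luminal marker of the list is not reported here.

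The methods name Student's t-test, which was an alternative here. Deviations from the population means of samples with the same replicate number, a number taken from the sample titles, correlated across probes with r of 0.43 (replicate 1), 0.28 (replicate 2) and 0.67 (replicate 3). Each exceeds 0.1, and equal numbers were therefore treated as pairs in an alternative fit. Whether equal numbers share a sort or a pool of animals is not given in the sources used here. The fit behind the printed differences, intervals and p-values has no block and is unpaired, and a blocked fit on those numbers is an alternative. LSC GFP+ replicate 1 with LSC GFP- replicate 2 correlated at 0.22, which also exceeds 0.1, and the other unequal pairs were negative. Deviations from a population's mean cancel out within it, so positive equal pairs bring negative unequal pairs with them. The correlations alone therefore do not settle the pairing. The unpaired fit takes all samples as independent, as the design states, which a sort or pool shared by equal numbers would break. Its p-values set each difference against the variation between samples of a population, which includes any variation between replicate numbers.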

Additional observations from a re-analysis of the deposited data

How the results depend on the processing

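Directions of the called member probes were kept in every alternative run, which were normexp background correction, quantile normalization, median scaling, 3 other filters on dim probes, the rounded values, outlier spots kept, the methods' t-test, an intensity trend, the replicate block and each array left out. The differences near 0 changed sign. Ehf A_55_P2070809 gave 0.0045 under normexp, 0.044 under median scaling, 0.032 without LSC GFP+ replicate 1 and 0.065 without LSC GFP- replicate 3, and Ehf A_66_P109519 gave -0.00022 under quantile normalization. Elf3 gave 0.31 and 0.028 without LSC GFP+ replicate 1 and without LSC GFP- replicate 3. Etv1 A_66_P135185 gave -0.15 and -0.027 without LSC GFP- replicates 2 and 3. With 1 array left out the ranges were -0.14 to 0.065 for that Ehf probe, -0.48 to 0.31 for Elf3 and -0.15 to 0.23 for that Etv1 probe. The cause was not tested.

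With the replicate block, which treats equal replicate numbers as pairs, 2495 and 2985 probes were called higher and lower over the array, 14 ERK genes and 3 receptor and adaptor genes were called, and of the members Spdef alone changed its call. Leaving out 1 array gave 2 to 4 member probes higher and 0 to 1 lower, 867 to 1355 and 1153 to 2788 of all probes (2788 without LSC GFP+ replicate 1), 0 to 1 other Ets genes, 2 to 4 ligands, 1 to 2 receptor and adaptor genes and 6 to 10 ERK genes. The methods' t-test called 0 member probes lower, 1 other Ets gene and 3 receptor and adaptor genes. Other Ets genes called were 1, Elf2, under normexp, with an intensity trend and with a signal above background required on all arrays, where 1 ligand, Fgf9, was left. Receptor and adaptor genes called were 2 under normexp, median scaling, an intensity trend and averaging over a gene's probes. A probe near background, as those of Erg and Fli1 were, allows no difference at this signal.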
